A study of Mus musculus with 8 samples.

Results

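The histone genes described here were the genes of the array whose single gene symbol names an H1, H2A, H2B, H3 or H4 gene (symbols that begin with H1f, H2ac, H2bc, H3c or H4c and a number, or with Hist1h, Hist2h, Hist3h or Hist4h in older naming). The rule found 30 genes of the 19938 with a probe set of their own: 8 of type H1, 4 of type H2A, 9 of type H2B, 3 of type H3 and 6 of type H4. Each had 1 probe set, so the highest-mean rule had nothing to choose between. In RefSeq, 23 of the genes lie on chromosome 13, 4 on chromosome 3 (H2bc18, H2bc21, H3c15 and H4c14), 2 on chromosome 6 (H1f8 and H1f10) and 1 on chromosome 15 (H1f7). The genes on chromosomes 6 and 15 lie outside the histone clusters of chromosomes 13 and 3.

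Histones are the proteins around which DNA is wound. H2A, H2B, H3 and H4 form the core of the nucleosome, and H1 binds the DNA between nucleosomes. Most genes of the clusters are expressed in S phase, when new DNA has to be packed, from messages that end in a stem-loop bound by the protein Slbp in place of a poly(A) tail, while replacement histone genes such as H2az1 and H3f3a are expressed through the whole cycle. Cluster genes of 1 type are close paralogs that encode the same or nearly the same protein, so a probe can match several of them.

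The study followed a clone of mouse pre-iPSC, cells caught between a somatic cell and an induced pluripotent stem cell, and asked how vitamin C changes their expression in time. The vitamin C group (4 arrays, on days 3, 4, 5 and 6) received 50 µg/ml vitamin C in mouse embryonic stem cell medium without a break from day 2, the day after plating. The untreated group (4 arrays, on days 3, 4, 5 and 6) had the same medium without it. All arrays held RNA of the 1 clone (MaF pre-iPSC9P2 in the sample labels, C9 in the series title) grown on feeder cells that were eliminated after trypsin treatment. Each treatment and day had 1 array, and the labels do not say that days were separate cultures, so a p-value here reflects only how far these arrays scatter, and part of that scatter may be technical. In bulk RNA fewer cells of a type and less RNA per cell cannot be told apart.

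Values are on the log2 scale, so a difference of 1 is a 2-fold difference. They are comparable between arrays for 1 gene, not between genes. Array medians ran from 4.33 to 4.40. Pluripotency markers, which check the labelled cell type, rose with vitamin C in 6 of 20 genes (median difference 0.55), and fibroblast markers, which feeder cells would carry, fell in 4 of 29 (median -0.39) by limma with Benjamini-Hochberg adjustment over all genes at 0.05. Of all 19938 genes 107 rose and 43 fell. When both arrays of 1 day were left out, 2 to 7 of the pluripotency markers and 0 to 5 of the fibroblast markers passed, the lowest numbers without day 4 for both lists and also without day 5 for the fibroblast markers. The mean log2 value of the fibroblast markers was 6.07 to 6.62 in the vitamin C arrays and 6.23 to 7.17 in the untreated arrays, with the lowest value of each treatment on day 6.

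The start regions of 4 members named in the results below are shown with short motifs known from histone promoters. The sequences are RefSeq's on GRCm38.p6 and run 5′ to 3′ on the gene's own strand over the 250 bases before the annotated start. Capitals mark matches to the letters of the CCAAT box, the TATA box (TATAAA), the GC box (GGGCGG) and the octamer (ATTTGCAT) on either strand. ATTGG thus stands for CCAAT of the other strand. Matches were marked wherever they lay, so a marked stretch need not be a working box. The TATAAA marked in H4c9 lies near the middle of the 250 bases, far from the start. H1f5 (minus strand, chr13:21780626-21780875) is shown because it was the member nearest the threshold on day 6, H4c9 (minus strand, chr13:22041363-22041612) for its lower values from day 5 on, and H3c15 (minus strand, chr3:96239128-96239377) as the one member that passed a test. H2bc8 (plus strand, chr13:23571150-23571399) shows the ATTTGCAT octamer.
H1f5: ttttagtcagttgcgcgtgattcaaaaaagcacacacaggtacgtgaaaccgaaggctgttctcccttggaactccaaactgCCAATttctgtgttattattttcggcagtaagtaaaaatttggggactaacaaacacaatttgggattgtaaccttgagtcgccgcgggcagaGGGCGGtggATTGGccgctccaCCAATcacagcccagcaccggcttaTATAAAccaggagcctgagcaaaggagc
H4c9: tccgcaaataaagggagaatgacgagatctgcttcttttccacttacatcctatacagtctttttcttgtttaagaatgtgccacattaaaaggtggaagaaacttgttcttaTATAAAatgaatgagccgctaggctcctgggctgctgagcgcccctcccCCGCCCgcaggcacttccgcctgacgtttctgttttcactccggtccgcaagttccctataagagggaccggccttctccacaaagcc
H3c15: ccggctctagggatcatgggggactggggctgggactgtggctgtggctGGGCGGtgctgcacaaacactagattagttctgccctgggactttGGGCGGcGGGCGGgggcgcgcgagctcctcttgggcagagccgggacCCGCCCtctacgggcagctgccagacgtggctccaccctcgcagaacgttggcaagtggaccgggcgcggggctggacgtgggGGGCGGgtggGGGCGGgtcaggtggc
H2bc8: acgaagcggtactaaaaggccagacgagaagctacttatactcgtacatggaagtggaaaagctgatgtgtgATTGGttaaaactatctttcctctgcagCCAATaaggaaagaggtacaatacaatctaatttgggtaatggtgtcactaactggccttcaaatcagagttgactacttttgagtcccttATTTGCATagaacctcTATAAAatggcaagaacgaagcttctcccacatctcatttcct

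A start region of 250 bases before to 50 after the start was at hand for 26 of the 30 genes (not for H2bc4, H2bc21, H3c7 and H4c14). On either strand CCAAT lay in 21 of them (80.8%, against 37.4% of all 32851 start regions of the table), TATAAA in 15 (57.7% against 13.6%) and GGGCGG in 10 (38.5% against 35.7%). The octamer ATTTGCAT lay in 8 (30.8% against 1.74%). All 8 were H2A or H2B genes: 3 of the 4 H2A and 5 of the 7 H2B regions held it, and none of the 15 others did. H2A and H2B genes often stand back to back. Their start regions overlapped in 9 pairs, of which H2ac8 with H2bc8 (279 shared bases) and H2ac1 with H2bc1 (220) had both partners among the members, so these partners share motifs. A match of letters is a description of the region and not a test of a factor.

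Vitamin C left no histone gene past the threshold over the 4 days. Of the 30 members 0 were called, where 0.752% of all genes were (150 of 19938, limma with day as a factor), and 2 members had an unadjusted p under 0.05 (12.7% of all genes did). The median difference, vitamin C minus untreated, was 0.04 on the log2 scale, beside -0.01 over all genes. The 95% interval lay within a 2-fold change either way for 29 of the 30 genes, all but H2bc9.

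**Figure D1:**
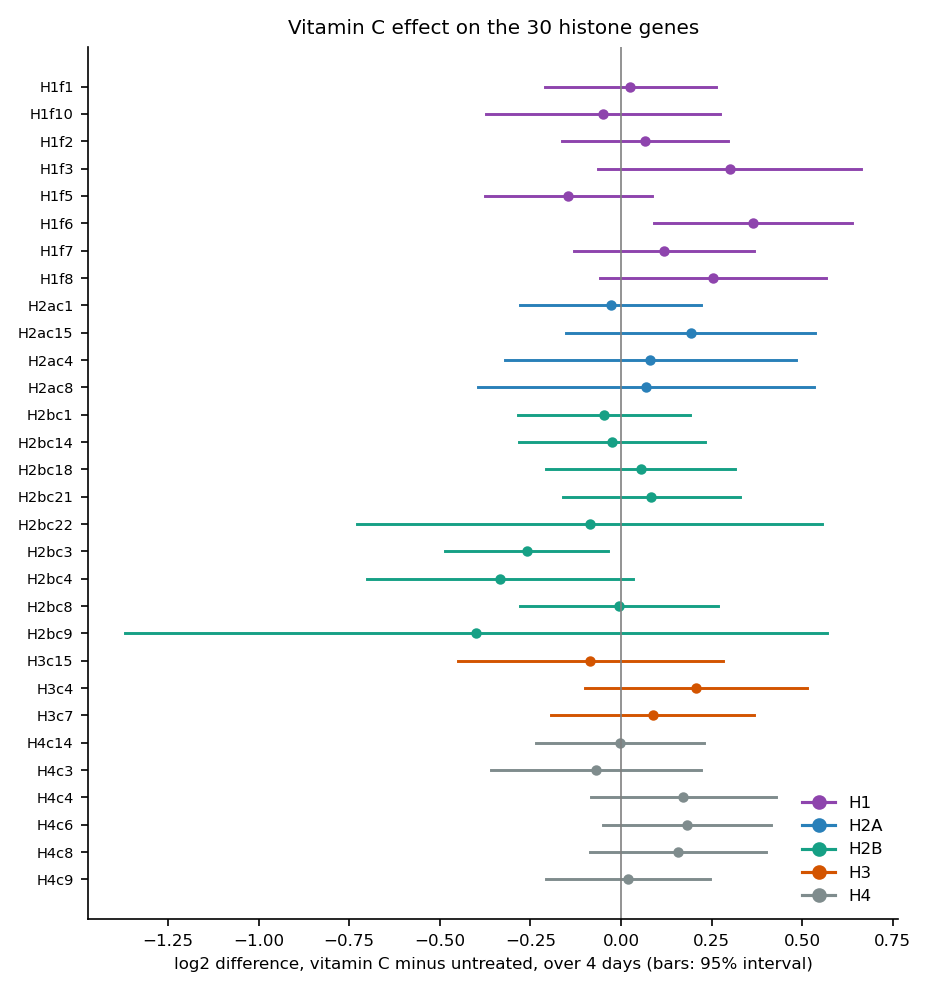
Difference in log2 value between vitamin C and untreated arrays over the 4 days (x axis) for each of the 30 histone genes (rows, coloured by histone type). Points are limma estimates and bars their 95% intervals. Estimates run from -0.40 for H2bc9 to 0.37 for H1f6, and the interval of H2bc9 is the widest.

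Among the linker histones, H1f6 (H1t, a testis form) had the smallest p. It had log2 values of 2.63, 2.40, 2.71 and 2.98 on days 3 to 6 with vitamin C, and 2.10, 2.26, 2.53 and 2.36 without. The vitamin C array was higher on each day, but the groups overlap, and all 8 values are in the range of the dimmest 25% of the genes. The difference was 0.37 ± 0.12 (moderated SE, 4 arrays each; limma adjusted p = 0.236). The other germ-cell forms did not pass either: H1f8 (H1foo, of the oocyte) differed by 0.25 (adjusted p = 0.509) and H1f7 (H1fnt, of spermatids) by 0.12 (adjusted p = 0.733).

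None of the linker genes of dividing cells passed between treatments. H1f1 averaged 9.06 ± 0.23 with vitamin C and 9.04 ± 0.28 untreated, H1f2 averaged 6.65 ± 0.28 and 6.59 ± 0.22, and H1f5 averaged 9.80 ± 0.30 and 9.94 ± 0.28 in the same order (SD, n = 4 each). H1f3 averaged 4.30 ± 0.35 with vitamin C and 4.00 ± 0.39 untreated, and H1f10 (H1fx, a linker gene outside the histone clusters) averaged 7.18 ± 0.14 with vitamin C and 7.23 ± 0.24 untreated. The 95% interval of the H1f3 difference ran from -0.06 to 0.66. For these 5 genes the adjusted p ran from 0.499 for H1f3 to 0.955 for H1f1.

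H2bc3, a core H2B gene, was the other member with an unadjusted p under 0.05. It had 6.31, 6.49, 6.86 and 6.43 on days 3 to 6 with vitamin C, and 6.56, 6.83, 7.09 and 6.65 untreated. The vitamin C array was lower on each day by 0.22 to 0.34, although the groups overlap because both peaked on day 5. The difference was -0.26 ± 0.10 (adjusted p = 0.312). H2bc3 and H1f5 were the 2 members lower with vitamin C on all 4 days (11.1% of all genes were), and H1f6, H4c4, H4c6 and H4c8 the 4 that were higher (9.29%). In no member did all 4 vitamin C values lie above, or all below, all 4 untreated values, as they did in 2.1% and 2.61% of all genes.

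By type the median vitamin C difference was 0.09 for H1, 0.07 for H2A, -0.05 for H2B, 0.09 for H3 and 0.09 for H4. Differences of the H4 genes ran from -0.07 (H4c3) to 0.18 (H4c6), and those of the H3 genes from -0.08 (H3c15) to 0.21 (H3c4). Within single days the core genes differed more. H2bc9 had 5.82, 3.85, 4.23 and 4.14 on days 3 to 6 with vitamin C, and 4.21, 5.62, 5.22 and 4.60 untreated. The vitamin C array was high on day 3 and low afterwards, and the daily differences were 1.62, -1.77, -0.99 and -0.46. H2bc22 had 4.10, 4.36, 2.93 and 3.35 with vitamin C and 4.04, 3.35, 4.17 and 3.53 untreated, which gave differences of 1.01 on day 4 and -1.24 on day 5. These are single arrays with no replicate. The day 5 value of H2bc22 with vitamin C, 2.93, is in the range of the dimmest 25% of the genes. A difference past 2-fold upward held for 0.371% of all genes on day 3 and 0.642% on day 4, and downward for 0.451% on day 4 and 0.266% on day 5.

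The 4 H2A genes reached their highest value on day 4 with vitamin C and on day 5 untreated. H2ac4 had 6.15, 6.87, 6.22 and 5.94 with vitamin C, and 6.06, 6.17, 6.78 and 5.85 untreated. H2ac15 had 7.18, 7.42, 6.88 and 6.78 with vitamin C, and 6.77, 6.94, 7.28 and 6.50 untreated. H2ac8 had 3.65, 4.28, 3.39 and 3.07 with vitamin C, and 3.65, 3.31, 3.67 and 3.49 untreated. The testis form H2ac1 had 5.41, 5.61, 5.50 and 5.31 with vitamin C, and 5.26, 5.55, 5.73 and 5.40 untreated. The peak of each gene was thus 1 day earlier in the vitamin C arrays, with 1 array behind each point. The median H2A difference was 0.59 on day 4 and -0.34 on day 5, beside 0.13 and -0.11 over the 30 histone genes and 0.0023 and -0.02 over all genes. In H2ac8 the untreated values of days 3 and 5, 3.65 and 3.67, were nearly equal. The same pair of peak days was seen in 11 of the 30 members, which besides the 4 H2A genes were 4 of 9 H2B, 2 of 6 H4, 1 of 8 H1 and 0 of 3 H3 genes, and in 6.01% of all genes. It was not confined to single genes of these types. The 8 brightest probe sets shared by H3 genes, described below, had their highest medians on the same days, 11.69 with vitamin C and 11.73 untreated. Untreated, the H3 median of day 4 was 11.69, close to that of day 5. The shared H4 probe sets, the dimmer shared H3 ones and that of H2bc6 and H1f4 did not have this pair of peak days. Those of H2B, and those of H2A with H3, were mixed. This pair of peak days was picked after the values had been seen, so its share among the members is a description only. The H2A genes are close paralogs on the same 8 arrays and do not count as 4 observations. No test of the design bears on the day of a peak.

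**Figure D2:**
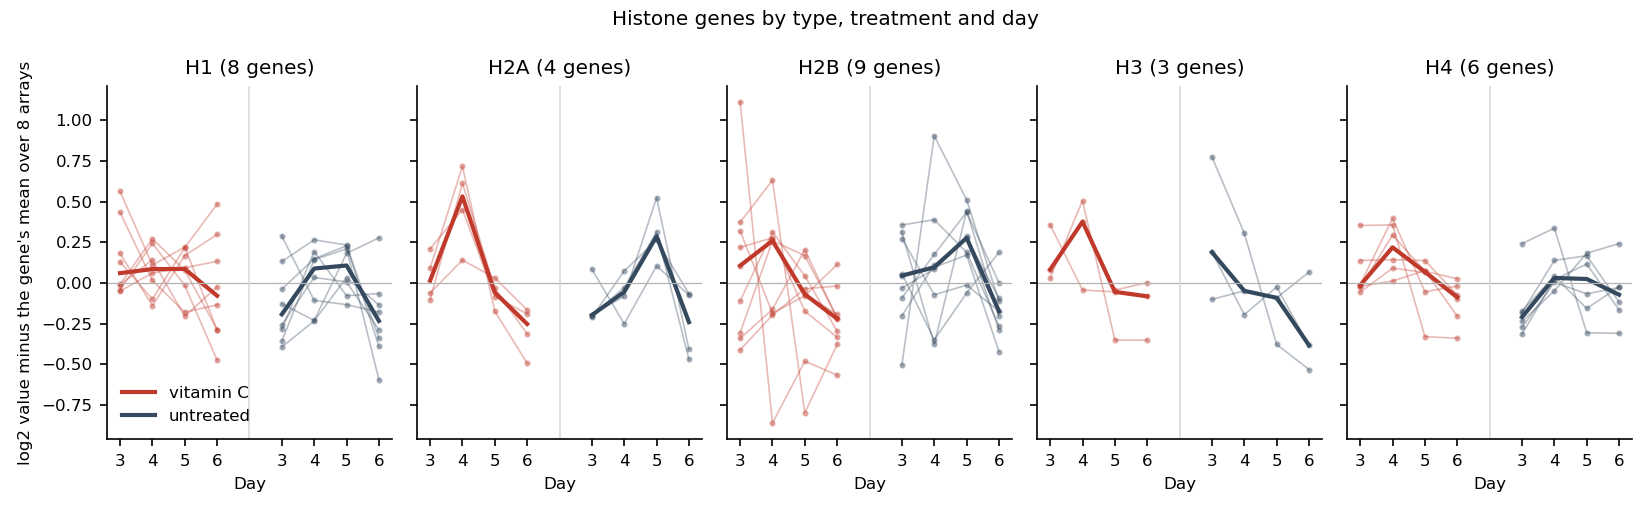
Log2 values of the 30 histone genes less each gene's mean over the 8 arrays (y axis) on days 3 to 6, in 1 panel per histone type, with vitamin C on the left of each panel and untreated on the right. Thin lines are genes and thick lines their median. The H2A median stands at 0.53 on day 4 with vitamin C and at 0.29 on day 5 untreated, and most medians are lowest on day 6.

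No member's vitamin C difference grew or shrank with time past the threshold: 0 of 30 were called by the interaction of treatment and day, against 0.0652% of all genes (13 of 19938, all upward), and 2 had an unadjusted p under 0.05 by limma (11.3% of all genes did), H2bc4 and H4c3. H2bc4 had 6.27, 6.48, 6.64 and 6.66 on days 3 to 6 with vitamin C, and 7.04, 7.07, 6.87 and 6.41 untreated. The vitamin C values were higher on each later day and the untreated values lower after day 4, and the order of the treatments turned on day 6. The difference grew by 0.34 per day (adjusted p = 0.221). H4c3 had 5.20, 5.23, 5.29 and 5.01 with vitamin C and 4.98, 5.17, 5.40 and 5.46 untreated, a change in the difference of -0.22 per day (adjusted p = 0.392). The H2bc4 and H4c3 courses lie on opposite sides, so the 2 do not share a direction.

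The slope on day within each treatment was tested in the same model. With vitamin C 0 of 30 members passed, against 8.64% of all genes, and 5 had an unadjusted p under 0.05, all downward (13.4% of all genes did so). The nearest were H4c9, with -0.28 ± 0.08 per day (adjusted p = 0.0644), and H2bc8, with -0.21 ± 0.07 per day (adjusted p = 0.0797). Of the 30 slopes 24 were below 0, beside 57.1% over all genes.

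In the untreated arrays 1 of 30 members passed, H3c15, against 1.75% of all genes in either direction and 0.968% downward. H3c15, an H3 gene of the chromosome 3 cluster, had 3.33, 3.80, 2.95 and 2.95 on days 3 to 6 with vitamin C, and 4.07, 3.60, 2.92 and 2.77 untreated. Days 3 and 4 were above days 5 and 6 in both treatments, and the treatments overlap. The 4 values of days 5 and 6 are in the range of the dimmest 25% of the genes. The untreated slope was -0.46 ± 0.10 per day (adjusted p = 0.0474), and the slope with vitamin C was -0.20 ± 0.10 per day (adjusted p = 0.244). The difference between the 2 slopes, 0.26 per day, had an adjusted p of 0.517. The call was lost in 10 of 18 other settings: without any 1 of the 4 untreated arrays, without the vitamin C array of day 5 or 6, without both arrays of day 3, 5 or 6, and with each probe set tested, where the adjusted p was 0.078. Over the 18 settings the slope ran from -0.58 to -0.42 per day.

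**Figure D3:**
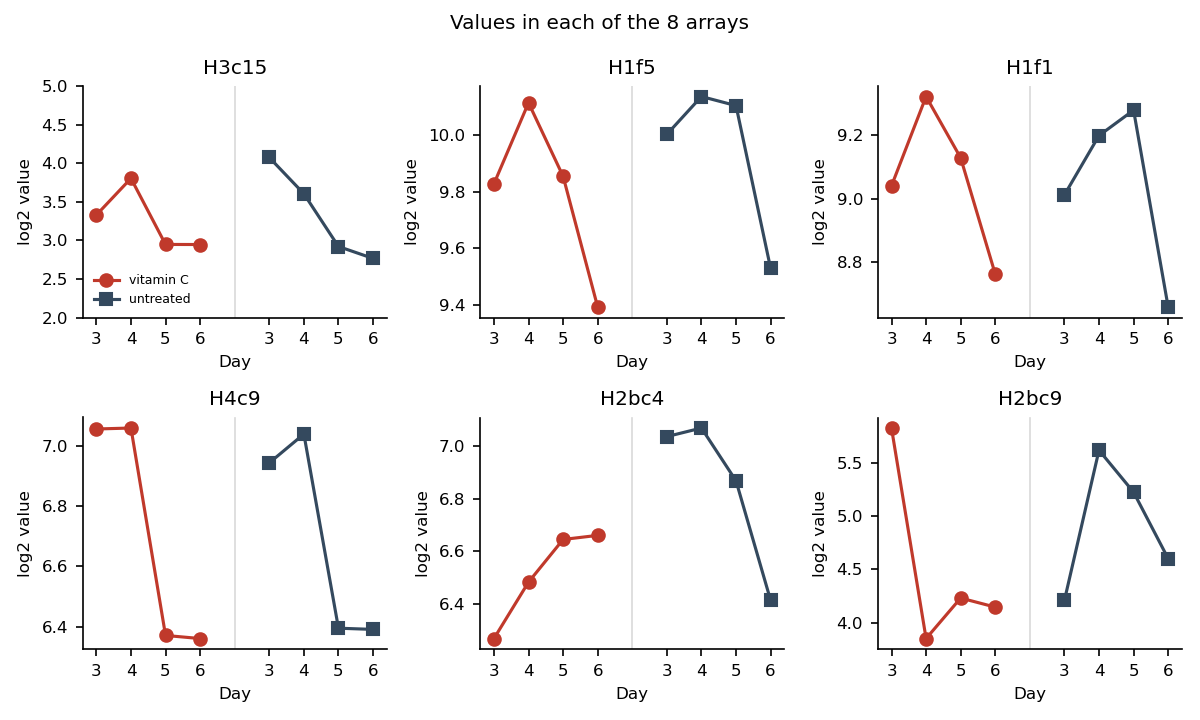
Log2 value (y axis, own scale per gene, not starting at 0) of 6 histone genes in each of the 8 arrays on days 3 to 6, with vitamin C on the left as circles and untreated on the right as squares. H3c15 and H4c9 are low on days 5 and 6, H1f5 and H1f1 on day 6, and H2bc4 and H2bc9 take unlike courses in the 2 treatments.

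Day 6 was set against the mean of days 3 to 5 over both treatments, a comparison chosen after the values had been seen. Most histone genes had lower values on day 6, but none passed: 0 of 30 were called, against 2.51% of all genes (501 of 19938, limma), and 10 had an unadjusted p under 0.05, all downward (10.1% of all genes did so). The median was -0.21 over the 30 genes and -0.01 over all genes, and 24 of 30 estimates were below 0, beside 52.3% of all genes. An F test of any difference among the days, also added afterwards, called 0 of 30 (1.44% of all genes), with 8 at an unadjusted p under 0.05 (15.9% of all genes).

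H1f5 came nearest. It had 9.83, 10.11, 9.85 and 9.39 on days 3 to 6 with vitamin C, and 10.001, 10.13, 10.10 and 9.53 untreated. Both day 6 arrays lay below the other 6. The difference, day 6 minus days 3 to 5, was -0.54 ± 0.12 (moderated SE, adjusted p = 0.05004). H1f1 took a like course, with 9.04, 9.32, 9.13 and 8.76 with vitamin C, and 9.01, 9.20, 9.28 and 8.66 untreated. Its difference was -0.45 ± 0.12 (adjusted p = 0.0914), with both day 6 arrays again the lowest. H1f3 differed by -0.59 (adjusted p = 0.133) and H1f2 by -0.21 (adjusted p = 0.383). The H1 genes were not uniform, since H1f6, H1f7, H1f8 and H1f10 had estimates of 0.01 to 0.23.

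H4c9 was low from day 5 on. It had 7.05, 7.06, 6.37 and 6.36 with vitamin C, and 6.94, 7.04, 6.40 and 6.39 untreated. Days 5 and 6 lay more than 0.5 below days 3 and 4 in both treatments, with no overlap, and the treatments were nearly level on each day. Its day 6 difference was -0.43 ± 0.12 (adjusted p = 0.0909), and its F test among the days had an adjusted p of 0.059. The other H4 genes lay between -0.16 (H4c4) and 0.03 (H4c3), so H4c9 stood apart from its type.

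The H2A genes had a median day 6 difference of -0.41 and the H2B genes one of -0.34. H2bc14 had 8.23, 8.65, 8.38 and 8.04 with vitamin C and 8.31, 8.42, 8.62 and 8.05 untreated, with both day 6 arrays the lowest and a difference of -0.39 (adjusted p = 0.155). H2bc18 had 6.93, 7.09, 6.75 and 6.63 with vitamin C, and 6.87, 6.92, 6.99 and 6.40 untreated, a difference of -0.41 (adjusted p = 0.143). In all, both day 6 arrays lay below the other 6 arrays in 5 of 30 members, against 9.34% of all genes. The 5 germ-cell members (H1f6, H1f7, H1f8, H2ac1 and H2bc1) had a median of 0.01. They were not uniform: H2ac1 had -0.16 and H2bc1 -0.20, and the H1 forms had 0.01 to 0.23. The 24 members other than these and H1f10, which is no germ-cell gene and had 0.17, had a median of -0.36. That split uses background knowledge of the genes and has no test here.

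A further 26 probe sets list several histone symbols and so belong to no single gene. They are 10 for H3 with 12 symbols each, 7 for H2B with 14 or 15, 6 for H4 with 2 to 11, 2 with 19 or 20 symbols of H2A and H3, and 1 for the pair H2bc6 and H1f4. Some repeat each other exactly, and 24 sets of values are distinct. With every probe set of the array tested, 0 of the 26 passed for the vitamin C effect (0.274% of all 28853 probe sets). For the interaction 0 passed (0.0347%), and 0 for either slope (6.48% with vitamin C and 0.953% untreated). By limma 1, 1, 5 and 2 had an unadjusted p under 0.05 in the same order, beside 2531, 2244, 4956 and 3399 of all 19938 genes. The 1 for the vitamin C effect was a dimmer H3 probe set. It had 7.19, 6.88, 6.94 and 7.36 on days 3 to 6 with vitamin C, and 6.76, 6.63, 6.73 and 6.59 untreated. Every vitamin C value lay above every untreated one, as in 2.1% of all genes. The difference was 0.42 (limma adjusted p = 0.251).

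The brightest shared H3 probe sets had nearly the same course. In 8 of the 10 the mean exceeded 11, and their median was 11.61, 11.69, 11.58 and 11.34 on days 3 to 6 with vitamin C, and 11.55, 11.69, 11.73 and 11.30 untreated. Day 6 was lowest in both treatments. Their day 6 differences ran from -0.35 to -0.30 (adjusted p 0.191 to 0.243), and they share probe sequence and genes, so they do not count as 8 observations. The other 2 H3 probe sets list the same 12 symbols and took other courses. The one described above had a day 6 difference of 0.12 (limma adjusted p = 0.737). The second had 7.65, 7.78, 7.36 and 7.83 on days 3 to 6 with vitamin C, and 8.02, 8.25, 7.37 and 7.11 untreated. Day 6 was thus its highest value with vitamin C and its lowest untreated, with a day 6 difference of -0.27 (adjusted p = 0.608). The shared H2B probe sets had day 6 differences of -0.26 to -0.06.

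One shared H4 probe set went the other way and was the only one of the 26 to pass on day 6 (0.811% of all probe sets did, and 9 of the 26 had an unadjusted p under 0.05, beside 16.7% of all probe sets). The other 8 of those 9 were the bright H3 probe sets, on the lower side. The H4 probe set lists 11 H4 genes, among them the members H4c3, H4c4, H4c6, H4c8 and H4c9. It had 6.71, 7.14, 7.07 and 7.67 on days 3 to 6 with vitamin C, and 6.88, 7.23, 6.97 and 8.02 untreated. Both day 6 arrays lay above the other 6, and the difference was 0.84 ± 0.13 (adjusted p = 0.0344). None of these 5 members passed on day 6 by its own probe set. The 4 other probe sets that list the same 11 genes had day 6 estimates of 0.02, 0.02 (these 2 have identical values), -0.0019 and -0.21, with adjusted p from 0.755 to 0.996. The files do not say which of the 11 genes its probes read.

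**Figure D4:**
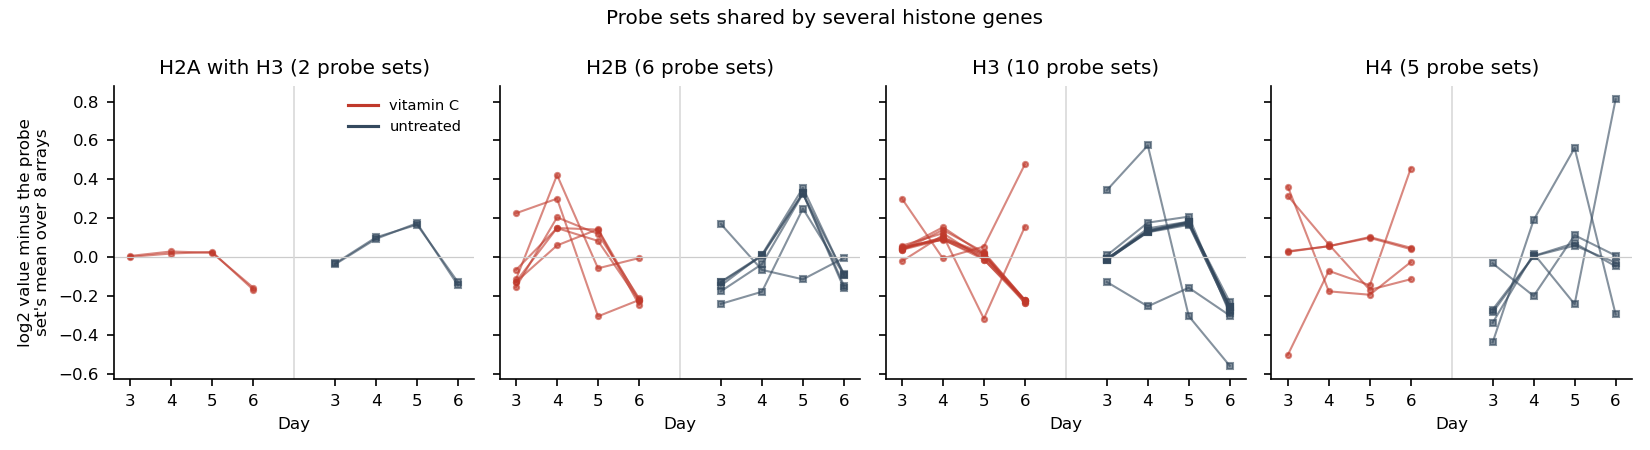
Log2 value less each probe set's mean over the 8 arrays (y axis) on days 3 to 6 for the probe sets that list several histone genes of 1 type, or of H2A with H3 (probe sets with identical values are drawn once), with vitamin C on the left and untreated on the right of each panel. Most H3 lines coincide and are lowest on day 6, and 1 H4 line is highest there, at 7.67 with vitamin C and 8.02 untreated before centring.

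Genes that work with the histone genes were also lower on day 6, with few past the threshold. Of 49 S phase and replication genes 5 fell on day 6 (0.983% of all genes fell), 49 had an estimate below 0, and their median was -0.33. They were Rrm2, the small subunit of the enzyme that makes deoxyribonucleotides, Tipin, of the replication fork protection complex, Gins1, of the replicative helicase, Pole2, a subunit of a replicative polymerase, and Dscc1, which helps load the sliding clamp or cohesin. Rrm2 had 10.09, 9.95, 9.22 and 8.53 on days 3 to 6 with vitamin C, and 10.03, 9.75, 9.57 and 9.14 untreated. It was lowest on day 6 in both treatments, with a difference of -0.93 ± 0.17 (adjusted p = 0.0305). Without the arrays of day 3, and likewise without those of day 4, 0 of the 49 passed (of all genes 73 and 0 did), while the median stayed at -0.30 and -0.32 with 49 estimates below 0. Of 29 genes of G2 and mitosis 0 passed on day 6, and their median was -0.31. By limma 20 of them had an unadjusted p under 0.05, all downward, beside 10.1% of all genes. Neither list had a gene past the threshold for vitamin C over days, where 4 and 3 had an unadjusted p under 0.05 (12.7% of all genes did).

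Of 26 genes for the transcription and processing of histone messages, Ccne1 and Ccne2, the cyclins E that start S phase, fell on day 6 by 0.73 and 0.71 on the log2 scale (adjusted p = 0.0321 and 0.0304). These were 2 of the 26, where 0.983% of all genes fell and 2.51% passed in either direction. Both calls were lost without day 3 and without day 4, when 73 and 0 of all genes passed. Slbp, which binds the stem-loop, had a day 6 difference of -0.12 (adjusted p = 0.664) and a vitamin C difference of 0.02 (adjusted p = 0.965). Npat, the coactivator of the histone loci, had 0.00 (adjusted p = 0.995) and 0.09 (adjusted p = 0.84). With vitamin C, Ccne2 and Ncbp1, a cap-binding subunit, fell per day and Tut4, an enzyme that adds uridines to RNA, rose by 0.36 per day (limma adjusted p = 0.0115). These were 3 of the 26, where 8.64% of all genes passed for the slope with vitamin C. Of the 26 genes 0 passed for vitamin C over days, with 3 at an unadjusted p under 0.05 (12.7% of all genes).

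Among 30 histone chaperones Asf1b, which hands H3 and H4 on during replication, fell on day 6 by 0.83 on the log2 scale (adjusted p = 0.0177). It was 1 of the 30, where 0.983% of all genes fell and 2.51% passed in either direction. It had 8.30, 8.28, 7.87 and 7.19 with vitamin C, and 8.26, 8.19, 8.01 and 7.46 untreated, lowest on day 6 in both. Its day 6 call was lost without day 3 and without day 4, when 73 and 0 of all genes passed. Asf1b, Hira and Anp32e fell per day with vitamin C, and Spty2d1 rose. These were 4 of the 30, where 8.64% of all genes passed for this slope. Of 13 replacement and other histone genes outside the clusters, H2aj fell on day 6 by 0.60 (limma adjusted p = 0.0393). It was 1 of the 13, beside the same shares of all genes. That call was lost without any 1 of days 3, 4 and 5, when 73, 0 and 842 of all genes passed. H2az1 and the centromeric Cenpa, 2 of the 13, fell per day with vitamin C by 0.28 and 0.26, beside the same 8.64% of all genes. Without day 6, 0 of the processing, chaperone and replacement genes passed for the slope with vitamin C, when 167 of all genes did. No chaperone or replacement gene passed for vitamin C over days by limma, with 2 and 0 at an unadjusted p under 0.05 (12.7% of all genes).

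Fibroblast markers moved with day as well. On day 6, 11 of 29 fell (0.983% of all genes did), with a median of -0.62, so the lower histone and S phase values of day 6 stand beside lower fibroblast marker values. Of the 29, 2 passed without day 3, 0 without day 4 and 14 without day 5, when 73, 0 and 842 of all genes did. Pluripotency markers had a median day 6 difference of 0.49. Of these 20 genes 3 rose, beside 305 of all 19938 genes. By limma 10 had an unadjusted p under 0.05 upward and 1 downward, beside 1735 and 2005 of all genes. Without day 3 or without day 4, 0 of the 20 passed, and 6 passed without day 5. The mean log2 value of the fibroblast markers was 6.07 on day 6 and 6.36 to 6.62 on days 3 to 5 with vitamin C, and 6.23 on day 6 and 6.75 to 7.17 on days 3 to 5 untreated. The part of either marker list in the histone values was not tested.

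**Figure D5:**
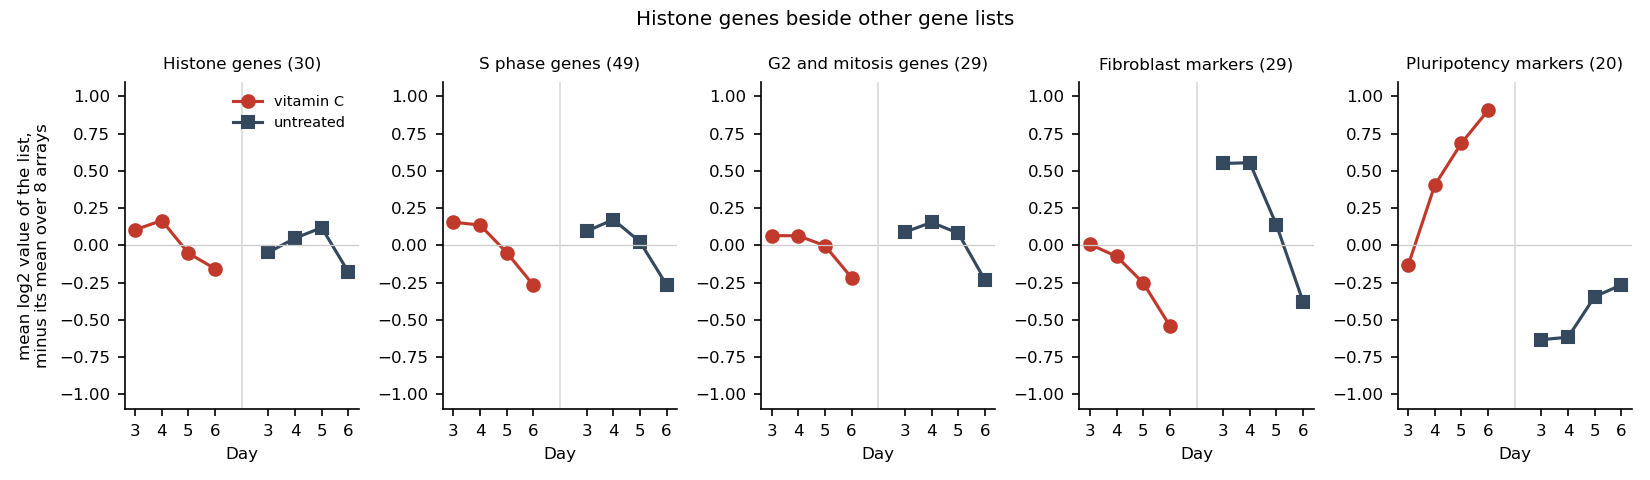
Mean log2 value of 5 gene lists less the list's mean over the 8 arrays (y axis, the same scale in each panel) on days 3 to 6, with vitamin C on the left as circles and untreated on the right as squares. The number of genes stands in each title. The histone, S phase, G2 and mitosis, and fibroblast lists are lowest on day 6 in both treatments, and the pluripotency markers are higher with vitamin C on every day.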

How the data were processed

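Expression was measured on 8 Affymetrix whole-transcript arrays from 100 ng of RNA each. Per the submitters' processing notes the authors used Partek and RMA. The deposited values were read as log2, since their maximum of 13.8 exceeds what natural logs of 16-bit readings can reach (11.1) but not what log2 can (16.0). Array number limits the precision.

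Of 28853 probe sets, 21789 list 1 gene symbol and stand for 19938 genes by the highest-mean probe set. Tests were moderated and two-sided in limma 3.58.1 (R 4.3.3), adjusted over all genes, with a threshold of 0.05. The vitamin C effect had day as a factor (3 residual and 6.03 prior degrees of freedom), which pairs the arrays of a day. Their deviations correlated with 0.371, 0.18, 0.125 and 0.475 on days 3 to 6. Slopes and interaction came from 1 model with a slope on day per treatment. In simulated data for the vitamin C effect, 92.5% of genes changed by 1 and 16.4% of those changed by 0.5 were found. For day 6 these were 91.0% and 8.96%. A total change of 1 was found in 16.4% for either slope and 0.0% for the interaction, and one of 2 in 34.8% for the interaction. The simulated arrays had independent noise, few changed genes and no differences among days besides the planted changes. These shares are thus only a rough guide to the real arrays.

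All 8 H1 genes, each member past a threshold, and in each type those with the smallest p were named. Members, lists and this rule were chosen with earlier results of these data known. Python 3.11.15, pandas 2.3.3 and matplotlib 3.10.9 made tables and plots. Protein sequences were not used here.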

Additional observations from a re-analysis of the deposited data

Results flagged for a closer look

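In 4 of 60 groups of 4 arrays (30 genes in 2 treatments) 1 array stood far from the other 3, by most of the group's range (Dixon's test at 95%). Chance gives this in about 1 of 20 groups of 4 replicates. The 4 arrays of a group here are different days and not replicates, and all genes share the same arrays, so that rate is only a rough guide. H4c4 was 9.61 on day 6 with vitamin C, below the other 3 vitamin C arrays at 9.82. H4c8 was 5.17 on day 4 with vitamin C, with the others at 4.72 to 4.76. H3c7 was 2.10 on day 3 with vitamin C, with the others at 1.66 to 1.69, all in the range of the dimmest 25% of the genes. H1f2 was 6.91 on day 3 untreated, with the others at 6.44 to 6.51. No cause was tested.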

How the results depend on the processing

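For the vitamin C effect 0 of 30 histone genes passed in all 12 other settings, among them no replicate block (day left out of the model, 0), and for the interaction 0 passed in all 19, among them the replicate block (day as a factor, 0). These day pairings changed no histone call. The slope with vitamin C called 1 gene, H4c9, with the dimmest 25% of genes left out and with the trend and robust options, and 0 to 1 when arrays were left out (H2ac8 without day 3, H2bc9 without day 4). The slope of H2bc9 ran from -0.80 to 0.15 when arrays were left out, and its direction turned without the day 3 array. The untreated slope called 0 with each probe set tested and 0 to 1 without single arrays or days. The F test among days called 1 with centring on array medians, 1 without the dimmest 25% (both H4c9) and 3 with trend and robust options (H1f1, H1f5 and H4c9). Day 6 against days 3 to 5 called 1, H1f5, with centring, without the dimmest 25% and with the mean of a gene's probe sets, 4 with trend and robust options (H1f1, H1f5, H2bc14 and H4c9), and 0 to 1 without single days (H4c9 without day 5). The causes were not tested. Direction held for 24 to 30 of the 30 genes for the vitamin C effect and for 26 to 30 on day 6, and for 17 to 30 in the interaction (median -0.19 to 0.04), 21 to 30 in the slope with vitamin C (-0.17 to -0.01) and 19 to 30 in the untreated slope (-0.10 to 0.12).

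Over all genes the counts moved more: 3 to 286 for the vitamin C effect without single days, 17 without day in the model, 291 with day as a number, 376 with trend and robust options and 79 over probe sets, beside 150. The interaction called 0 to 29 genes without single arrays or days and 80 with trend and robust options, beside 13. The slopes called 167 to 1680 with vitamin C (beside 1722) and 1 to 530 untreated (beside 349) in such leave-outs. With trend and robust options the untreated slope called 782 genes, the F test 898 (beside 288) and day 6 against days 3 to 5 called 1157, and over probe sets the F test called 120 and day 6 called 234. The interaction called 21 after renewed quantile normalization, 20 without the dimmest 25% and 20 with the replicate block, and the F test 50 to 301 without single days. Day 6 against days 3 to 5 called 0 to 842 genes without single days, beside 501. With 1 array per treatment and day, dim probe sets such as those of H1f6, H1f8, H2bc21, H3c7 and, on days 5 and 6, H3c15, and probe sets shared by paralogs, limit what can be read.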
